A study of Drosophila melanogaster with 2 samples.

Results

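The regions described here are the candidate binding sites of Kahuli (Kah) in the pericentromeric heterochromatin of *Drosophila melanogaster*. A candidate belonged to them when its summit, the base of highest signal in the list called on both replicates together, lay on chromosome arm 2L above 22000000, on 3L above 22960000, on 3R below 4550000 or on X above 22300000 (dm6). By this rule 241 of the 30000 pooled candidates were chosen, of which 53 lay on 2L, 32 on 3L, 108 on 3R and 48 on X. They are set beside the other 23866 candidates of the same 4 arms.

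The values came from ChIP-seq, which sequences DNA fragments recovered with an antibody. There was 1 group of 2 biological replicates, whole embryos of both sexes aged 0 to 16 h from a transgenic line that makes Kah fused at its C-terminus to green fluorescent protein, with chromatin sonicated to 200 to 800 bp. The labels give the assay as transcription factor ChIP-seq against kah, whereas their free text calls both libraries an input control. The lists were read here as ChIP-seq peaks, as the deposited file listing describes them. No untagged line or other condition was part of the data used, so the comparisons are between regions and between replicates, and p-values over regions, which are not replicates of a condition, were not computed.

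Heterochromatin is the compact, gene-poor part of the genome around the centromeres. It is rich in transposable elements and satellite repeats and carries repressive histone methylation, yet it holds genes that are needed for life, many of them with long, repeat-filled introns. Kah belongs to the Snail family of zinc finger proteins, which bind the word CAGGTG in DNA.

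No chromatin mark was measured in these files, so the name of the segments was checked against their sequence. Of the bases of the 4 segments, 39.8% were masked as repeats in the RefSeq Release 6 assembly, against 17.5% in the rest of the 4 arms. Annotated transposable elements covered 15.4% against 3.94%. These shares varied along the segments and between arms. In the outermost 100 kb of the 3R segment 18.2% of bases were masked, and in the next 150 kb 18.5%, beside 15.7% in the rest of that arm. Transposable elements covered 15.7% and 13.1% of these outer stretches, against 3.22% of the rest of 3R. In the 250 kb just outside the 3R limit, however, they covered 12.1%, and 18.7% of bases were masked. These shares therefore do not set the outer stretches apart from the adjoining sequence. The outer stretches held 21 and 43 of the 108 candidates of the 3R segment.

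Of the 241 candidates, 16 passed the authors' irreproducible discovery rate (IDR) threshold, which keeps peaks that replicates rank alike. The DNA under a few of these and of the strongest remaining candidates is given first, since it shows which of them hold the Snail-family word. Each sequence is centred on the summit and reads 5′ to 3′ on the plus strand of dm6, and capitals mark CAGGTG or ACAGGT or their reverse complements. Windows that touch a UTR are cut to 29 bases.
tio, the strongest member (IDR), chr2L:22018963-22019063: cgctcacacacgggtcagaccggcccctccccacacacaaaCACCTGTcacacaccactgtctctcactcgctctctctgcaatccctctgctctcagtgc
CG31523 intron (IDR), with neither word, chr3R:4478289-4478389: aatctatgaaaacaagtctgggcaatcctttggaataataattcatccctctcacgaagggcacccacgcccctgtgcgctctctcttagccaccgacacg
CG31522 promoter (IDR), of the IDR members the one that differed most between replicates, chr3R:4453399-4453499: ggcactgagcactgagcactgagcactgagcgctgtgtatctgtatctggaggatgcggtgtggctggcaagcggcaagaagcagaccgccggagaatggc
RpL10 promoter (IDR), chr3L:23095478-23095506: cggaagcacaaaaggtttcgtcgcaaacc
Nubpl, not in the IDR list, chr2L:22240283-22240383: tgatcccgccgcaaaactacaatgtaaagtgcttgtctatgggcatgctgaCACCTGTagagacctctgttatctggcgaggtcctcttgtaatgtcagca
CG31523 intron, not in the IDR list, chr3R:4476895-4476995: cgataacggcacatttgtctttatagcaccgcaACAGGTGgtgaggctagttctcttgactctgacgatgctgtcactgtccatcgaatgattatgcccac
RpL15 promoter, deep in the 3L segment, not in the IDR list, chr3L:27267232-27267260: tttgtcgtgtgatccaactcattgcttcc
The word stood within 10 bp of the summit at tio and Nubpl and 16 bp before it in the intron of CG31523. In all 3 it was part of the longer word ACAGGTG. The sites printed are not typical in this, since CAGGTG was found at 13 of the 241 members.

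The site of tio, tiptop, which encodes a zinc finger transcription factor related to Teashirt, was the strongest of all members. Its pooled signal was 614.9, on the scale of the authors' peak caller, with 277 in replicate 1 and 340 in replicate 2. It ranked 364th of the 30000 pooled candidates. The summit, at 2L 22019013, was intergenic, 195 bp upstream of the start that tio shares with the non-coding lncRNA:CR33987 (both start at 22019208), and 19.0 kb inside the limit. The log2 ratio of replicate 2 to replicate 1 was 0.29, beside a median of 0.10 with an SD of 0.62 over the 10852 candidates outside the segments that had a summit within 100 bp in both replicate lists. A weaker candidate lay in the 3′ UTR of tio (127.3 pooled, 62.0 in replicate 1, 67.2 in replicate 2). No other protein-coding gene of the 2L segment had an IDR peak at its start. The material was whole embryos, so a weak site bound in many cells and a strong one bound in few cannot be told apart by these signals.

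On 3R, 11 IDR members stood within 264 kb, between 4214261 and 4478339. The 250 kb just outside the 3R limit held 3 IDR peaks and the next 250 kb outward 11. With 34.9 IDR peaks per Mb in the rest of 3R, the count of 11 does not set this stretch apart. The strongest of the 11 members lay in the 5′ UTR of Sfxn1-3, 29 bp from one of its starts (summit 4378954). Sfxn1-3 is a sideroflexin gene, of the family that carries serine into mitochondria. The pooled signal of its site was 412.6, with 189 in replicate 1 and 221 in replicate 2. Next came an intronic site of CG31523 at 4478339, with 349.5 pooled, 178 in replicate 1 and 154 in replicate 2. CG31523 and its neighbour CG31522 encode proteins of the fatty acid elongase family.

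CG31522 held 2 IDR members 928 bp apart. The one 133 bp from a start of the gene, at 4453449, had a pooled signal of 199, with 48.0 in replicate 1 and 169 in replicate 2. The other, in an intron at 4452521, had 159.9 pooled, 53.0 in replicate 1 and 105 in replicate 2. Both were higher in replicate 2. Their log2 ratios of 1.82 and 0.99 lay 2.77 and 1.43 SD above the median ratio outside the segments. The non-coding asRNA:CR43629 overlaps this stretch on the other strand, with a start 102 bp from 4453449, so the sites cannot be assigned to 1 of these genes.

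Further IDR members lay at gene starts. The divergent starts of eIF3a, a subunit of a translation initiation factor, and CG1074 shared 1 summit, 41 bp from the first and 111 bp from the second (4433854). Its signal was 236 pooled, 124 in replicate 1 and 117 in replicate 2. At RpL10, a protein of the large ribosomal subunit, the summit lay 21 bp from the start on 3L (167 pooled, 80.5 in replicate 1, 84.5 in replicate 2). DhpD, dihydropterin deaminase of red eye pigment synthesis, had a summit 112 bp from its start (192 pooled), with 110 in replicate 1 against 73.2 in replicate 2, a log2 ratio of -0.58, or -1.10 SD from the median.

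Both IDR members inside aux, the auxilin that helps uncoat clathrin vesicles, lay in introns, 1618 bp apart. The first, at 4214261 where the gene overlaps CG14636, had 253 pooled, 135 in replicate 1 and 116 in replicate 2. The second, at 4215879, had 179 pooled, 101 in replicate 1 and 81.9 in replicate 2. Both were a little higher in replicate 1, within 1 SD of the median ratio. An intronic summit of srl, spargel, the fly relative of the PGC-1 activators of mitochondrial genes, lay 585 bp from its start (171 pooled, 77.7 in replicate 1, 101 in replicate 2).

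The remaining 5 IDR members were spread over the 4 arms. The intergenic summit at 3R 4395341, 208 bp from asRNA:CR45999, had 257 pooled, 125 in replicate 1 and 130 in replicate 2. CG14646 had a summit 29 bp from its start on 3R (201 pooled, 85.0 in replicate 1, 121 in replicate 2), and CG33217 one 35 bp from its start on 3L (231 pooled, 115 in replicate 1, 112 in replicate 2). The only IDR member of the X segment was an intronic site of Usp2, a ubiquitin-specific protease (185 pooled, 91.7 in replicate 1, 82.9 in replicate 2). An intronic site of CG42748 on 2L had 231 pooled and 131 in replicate 2. Its nearest summit in replicate 1 was 109 bp away, with 96.9, just past the 100 bp used for matching.

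**Figure D1:**
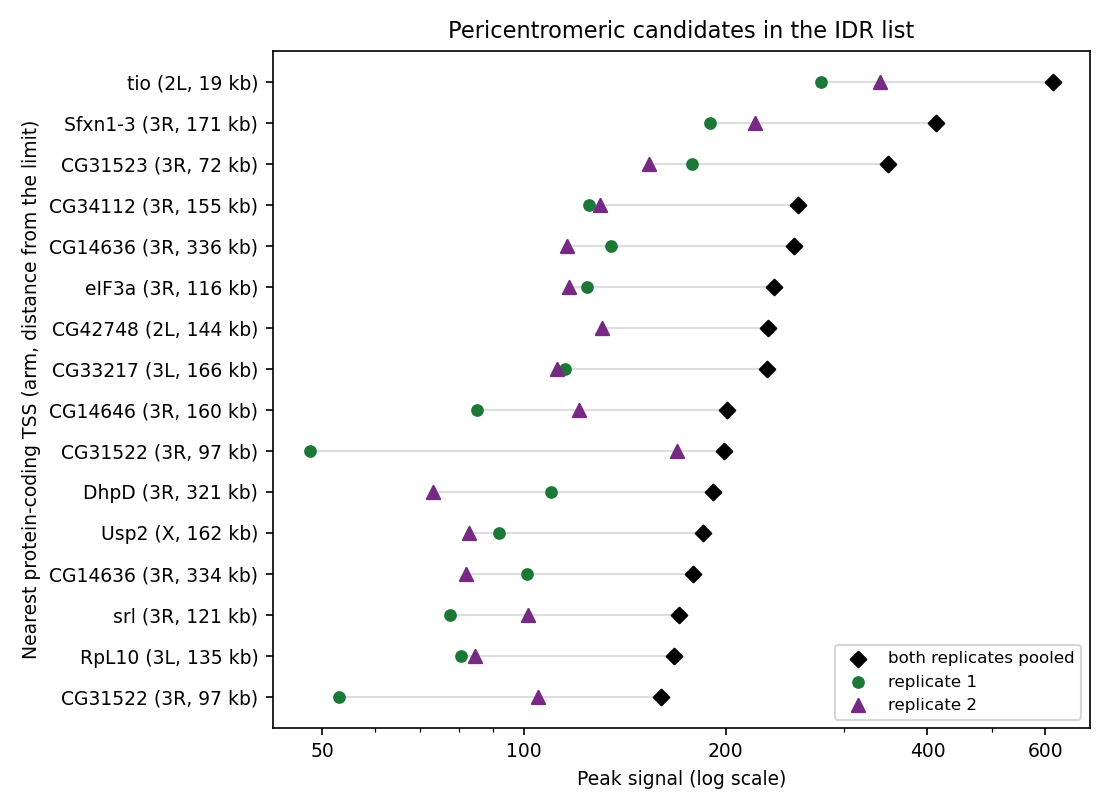
Peak signal (log scale, caller's units) of the 16 pericentromeric IDR members, one row each, labelled by the nearest protein-coding start, arm and distance inside the limit. Diamonds are the pooled signal, circles replicate 1 and triangles replicate 2. tio is the highest at 614.9 pooled, and the CG31522 rows show the widest gaps between replicates (48.0 against 169 in the upper one).

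So 15 of the 16 IDR members had a summit within 100 bp in both replicate lists. Of these, 12 lay within 1 SD of the median ratio and 3 beyond it, with 8 higher in replicate 2 and 7 lower. The read depth of the libraries is unknown, and a ratio between the lists also carries any difference in depth. The IDR list and the replicate lists come from the same libraries, so this is no independent check of these sites.

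Passing the IDR threshold was less frequent inside the segments than outside. It was passed by 16 of 241 members (6.64%, exact Clopper-Pearson 95% interval 3.84 to 10.6%), against 3283 of 23866 other candidates of the 4 arms (13.8%, 13.3 to 14.2%). Over all pooled candidates the share was 13.7%. By arm it was 2 of 53 on 2L, 2 of 32 on 3L (6.25%, 0.766 to 20.8%), 11 of 108 on 3R (10.2%, 5.20 to 17.5%) and 1 of 48 on X. The other candidates had 14.6% on 2L, 13.3% on 3L, 13.9% on 3R and 13.2% on X. On 3L and 3R the members' intervals contain these shares, and only on 2L and X did the intervals of members and others not overlap. The IDR peaks are the 4105 pooled candidates of highest signal (the lowest had 149.7, the highest other candidate 149.6), so these shares describe signal. Intervals cover counting error only.

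The median pooled signal was 49.9 over the 241 members (quartiles 40.3 and 78.3, highest 614.9) and 58.0 over the others (quartiles 42.4 and 97.9, highest 13674). Distribution-free 95% intervals of these medians were 45.6 to 54.4 for the members and 57.5 to 58.6 for the others. The lower quartiles were close, since both lists end at the same lowest signals, and the difference was wider at the upper quartile. In the 500 kb outside each limit there were 317 candidates, none of them on X. Their median signal was 54.1 (48.8 to 59.2, highest 1284), an interval that overlaps those of both members and others. Of these 317, 26 were in the IDR list (8.20%, 5.43 to 11.8%), an interval that overlaps that of the members.

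Candidates were sparse in the segments. These cover 11.6% of the bases of the 4 arms (12.5 Mb) and held 1.00% of the candidates and 0.485% of the IDR peaks. Per Mb there were 19.3 candidates in the segments against 252 in the rest of the arms, a 13.0-fold difference. Counted per Mb of unmasked sequence it was 32.6 against 305, or 9.35-fold. Unmasked sequence is not free of repeats, however. At 250 to 500 kb inside the 3L limit 30.3% of bases were masked, while annotated transposable elements covered 60.7%. IDR peaks stood at 1.28 per Mb against 34.6. How many reads could be placed in repeats was not known from the files, and the part of mappability in these densities was not tested.

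The arms differed in density. The X segment had 38.6 candidates per Mb and the 2L segment 35.0, the 3R segment 23.7 and the 3L segment 6.21, while the rest of these arms held 219, 246.5, 251 and 289. Protein-coding genes were also sparse, with 179 in the 12.5 Mb of the segments against 10834 in the 94.8 Mb of the rest. Of the 179, 66 were on 3R and 38 on 3L.

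Most members lay near the limits. Within 250 kb of them stood 131 of the 241, and within 500 kb 182 (75.5%). Their density was 72.5 per Mb in the first 100 kb, 170 in the next 150 kb, 51 between 250 and 500 kb, 17.5 between 500 and 1000 kb and 2.84 beyond. In the 500 kb outside the limits it was 148 to 169 per Mb, and that sum includes an X flank with 0 candidates. By arm, the first 100 kb inside held 210 per Mb on 3R, 60 on 2L, 20 on 3L and 0 on X. At 100 to 250 kb inside there were 287 on 3R, 220 on 2L, 46.7 on 3L and 127 on X. The 250 kb outside held 184 on 3R, 200 on 2L, 208 on 3L and 0 on X. From 250 to 500 kb outside it was 484 on 3R, 92 on 2L, 100 on 3L and 0 on X. All 16 IDR members lay 19.0 to 336 kb inside. Among the 59 members deeper than 500 kb none was in the IDR list, where a count of 0 allows a share of up to 6.06%.

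**Figure D2:**
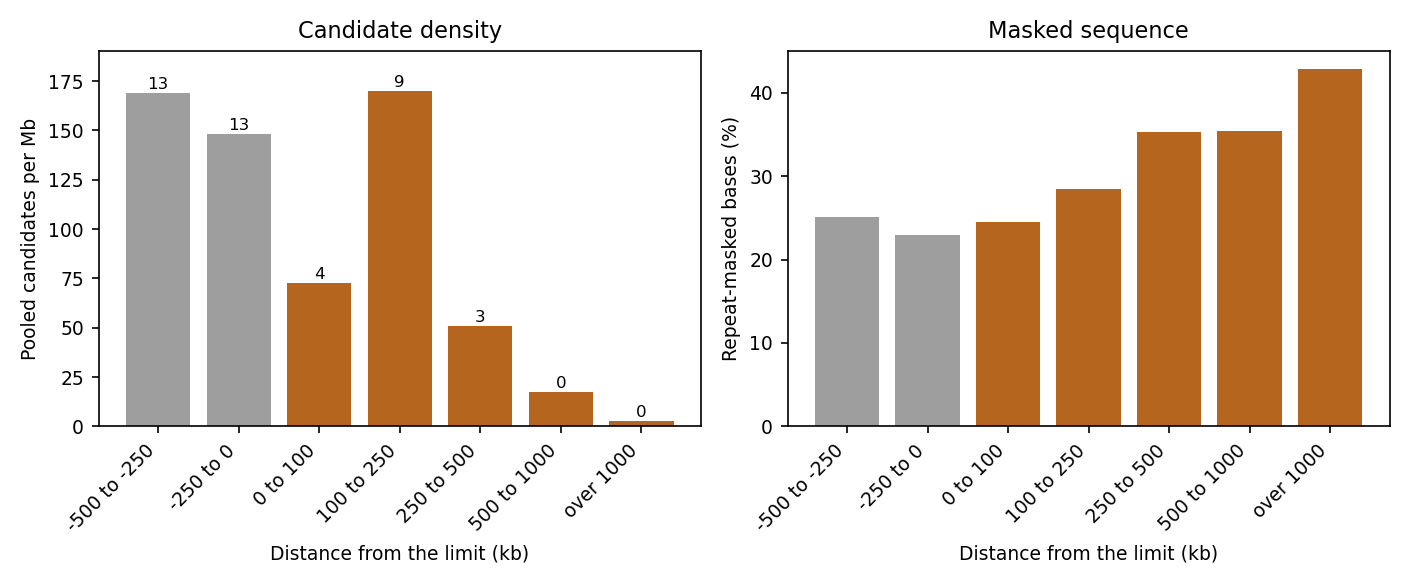
Left, pooled candidates per Mb by distance from the limit (kb, negative outside), with the number of IDR peaks above each bar. Right, repeat-masked bases (%) in the same bins. Brown bars are inside the segments and grey bars outside. Density falls to 2.84 per Mb beyond 1000 kb, where 42.9% of bases are masked.

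The 4 arms were not alike in how deep the candidates went. On 3L they reached 4900 kb inside the limit, on 2L 1176 kb, on 3R 927 kb and on X 796 kb. Of the 3R segment 3.55 Mb, beyond 1000 kb from the limit, held 0 pooled candidates, whereas the 4.15 Mb of 3L at that distance held 18. On X there was no pooled candidate over 810 kb across the limit, between 21634044 (signal 47.4) and 22443726 (signal 60.9). That gap has 34.7% masked bases, 64320 undetermined bases and 21 protein-coding genes, and held 1 candidate of replicate 1 and 2 of replicate 2.

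**Figure D3:**
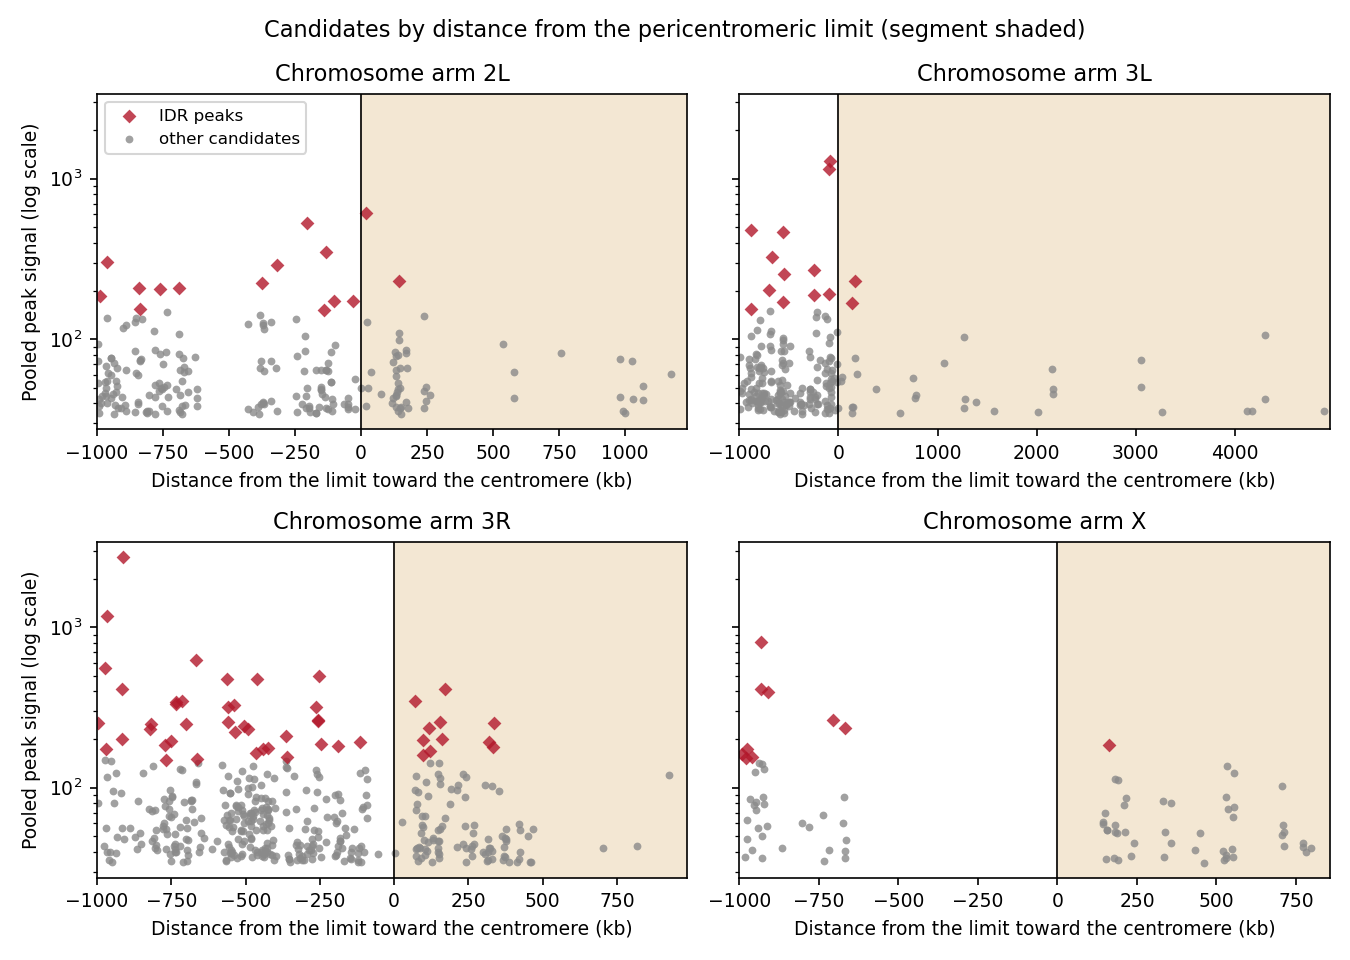
Pooled peak signal (log scale) against distance from the limit toward the centromere (kb) for all pooled candidates inside the segments and in the 1000 kb outside, one panel per arm. Red diamonds are IDR peaks, grey points other candidates, and shading marks the segment. The deepest IDR member, on 3R, is 336 kb in, and the X panel shows the 810 kb gap across the limit.

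Values next to the limits show what a shift of the rule would add or remove. On 2L the first member inside was the tio site itself and the first candidate outside, 1.69 kb away from the limit, had a signal of 49.4. On 3L these were 54.9 inside and 37.5 outside, and on 3R 39.0 inside and 38.9 outside. None of these but tio was in the IDR list.

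The 10 strongest members that missed the IDR list lay between 118 and 143, and 7 of them were on 3R or 2L within 250 kb of the limit. They were led by a summit in an intron of CG9853, 94 bp from the start of CG14647 (142.6 pooled, 84.1 in replicate 1, 45.7 in replicate 2). Next was a summit 60 bp from the start of srl (141.7 pooled, 93.4 in replicate 1, 56.4 in replicate 2). Both were higher in replicate 1. At Nubpl, whose human relative assembles iron-sulphur clusters of respiratory complex I, a summit in a coding exon had 140.1 pooled, 59.4 in replicate 1 and 84.7 in replicate 2. lost, known for localising germ plasm RNAs, had 121 pooled, with 47.6 in replicate 1 and 78.4 in replicate 2, and CG9795 121 pooled, with 45.5 in replicate 1 and 80.8 in replicate 2. The intronic site of CG31523 shown above had 118 pooled, 44.9 in replicate 1 and 70.4 in replicate 2.

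The deepest of these 10 belonged to Alg-2, a calcium-binding protein of the penta-EF-hand family, 927 kb inside the 3R limit. It had 119 pooled, 81.2 in replicate 1 and 24.9 in replicate 2. Its log2 ratio of -1.71, or -2.91 SD from the median, was the lowest among the 93 members with a summit in both lists. In all, 3 of those 93 were more than 2 SD from the median ratio (3.23%), beside 5.15% of the other candidates.

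Folded gastrulation, fog, which encodes a secreted signal for cell shape change at gastrulation, drew the most candidates of the well known genes in the segments. It held 11 in the gene or within 500 bp of it on X, of which 10 were inside the gene, and 0 were in the IDR list. The strongest lay in an intron near mir-2491 and inside the overlapping CG42346 (136.4 pooled, 76.6 in replicate 1, 52.8 in replicate 2). Another in the 5′ UTR had 123.6 pooled, 60.3 in replicate 1 and 63.0 in replicate 2. Several candidates in 1 gene also stood in CG42748 (18, 1 IDR), CG31522 (12, 2 IDR), CG31523 (10, 1 IDR) and cpx, complexin of synaptic vesicle release (6, none IDR).

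A list of 31 well known heterochromatic genes had 22 in the segments. Of these, 9 had a candidate, 6 of them within 500 bp of a start, and 0 had an IDR peak. Over all 179 genes of the segments 45.8% had a candidate at a start (29.2% of those deeper than 500 kb) and 5.03% an IDR peak (0 of 72 deeper than 500 kb), so with 22 genes the count of 0 IDR peaks does not set the list apart. RpL15, a ribosomal protein gene 4307 kb inside 3L, had a summit 9 bp from its start (106 pooled, 53.6 in replicate 1, 53.3 in replicate 2). RpL5 on 2L had 94.0 pooled, with 61.1 in replicate 1 and 33.4 in replicate 2. The replicates were nearly equal at RpL15 and apart at RpL5.

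Weaker candidates stood at further listed genes. Snap25, a SNARE protein of neurotransmitter release, had 3, the strongest in an intron (103 pooled, 45.4 in replicate 1, 50.4 in replicate 2). cta, the G protein subunit that acts downstream of fog, had 75.1 pooled, with 23.7 in replicate 1 and 47.5 in replicate 2. The cell adhesion gene nrm had 58.0 and no summit within 100 bp in replicate 1. nvd, an oxygenase of ecdysone synthesis, vtd, a cohesin subunit, and AGO3, of the piRNA pathway, had 40.7, 35.8 and 34.7, each with a match in replicate 1 and none in replicate 2.

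No pooled candidate was listed at the other 13. These were lt, Dbp80, Pzl, eIF4B, Set1, spok, Parp1, Myo81F, FASN3, su(f), stnA, stnB and scro, with functions from lysosomal transport (lt) and RNA 3′ end processing (su(f)) to histone methylation (Set1) and ecdysone synthesis (spok). Myo81F spans 1966 kb of 3R without a pooled candidate. In 6 of the 13 a replicate list held a candidate, and in 7 none of the 3 lists did. A list ends at its 30000 entries, so absence from it says only that no site there reached the list.

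Starts of further genes far inside carried candidates of moderate signal. CG40006 had 81.8 pooled, 53.1 in replicate 1 and 29.7 in replicate 2. CG40045 had 71.6 pooled, 35.5 in replicate 1 and 26.5 in replicate 2, and MED21, a Mediator subunit, had 65.3 pooled, 29.9 in replicate 1 and 26.5 in replicate 2. These summits lay 34, 43 and 129 bp from the starts, and all 3 were higher in replicate 1. At the starts of the splicing factor genes, Spf30 had 57.6 pooled, 30.0 in replicate 1 and 30.8 in replicate 2, and Spf45 had 51.0 pooled, 19.2 in replicate 1 and 31.3 in replicate 2. Both of these were higher in replicate 2.

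Counted by gene, starts in the segments carried IDR peaks less often than starts elsewhere, and candidates about as often near the limit. Of the 179 protein-coding genes with a start in the segments, 9 had an IDR peak within 500 bp (5.03%, 2.32 to 9.33%), against 1876 of 10834 (17.3%, 16.6 to 18.0%) in the rest of the arms. They were CG1074, CG14646, CG31522, CG33217, DhpD, RpL10, Sfxn1-3, eIF3a and tio. Any candidate was found at 82 (45.8%, 38.4 to 53.4%) against 53.3%. In the first 500 kb of the segments it was 61 of 107 (57.0%) and deeper 21 of 72 (29.2%). In the 500 kb outside the limits 61 of 178 genes (34.3%) had a candidate and 13 (7.30%, 3.95 to 12.2%) an IDR peak, beside 8.41% (3.92 to 15.4%) in the first 500 kb inside.

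**Figure D4:**
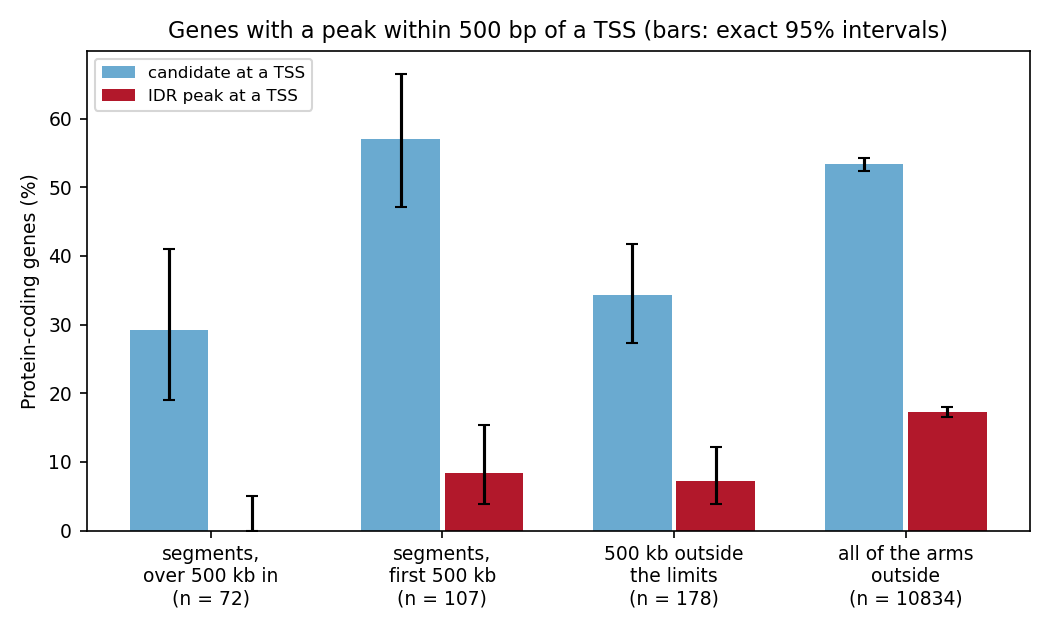
Share of protein-coding genes (%) with a candidate (blue) or an IDR peak (red) within 500 bp of a start, by position of the gene, with exact 95% intervals and the number of genes below. IDR peaks stand at 0 of 72 genes deeper than 500 kb, 8.41% in the first 500 kb, 7.30% in the flank and 17.3% over the arms outside.

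Over the 4 arms together, members lay nearer to gene starts than the other candidates did, but not on X. Within 500 bp of a protein-coding start stood 39.8% (33.6 to 46.3%) against 29.4% (28.8 to 30.0%), and the median distance was 795 against 1796.5 bp. By arm it was 18 of 53 against 28.8% on 2L, 46.9% against 27.4% on 3L, 46.3% against 30.5% on 3R and 27.1% against 31.1% on X. Only on 3L and 3R did the exact intervals of members and others not overlap. The median distance on X was 1602 against 1592 bp. In the 500 kb outside the limits 85 of 317 candidates (26.8%) were within 500 bp of a protein-coding start. More than 5000 bp from any protein-coding start were 12.9% against 29.3%. By annotation 15.4% against 10.6% were in 5′ UTRs, 8.30% against 5.02% in coding exons, 40.2% against 50.4% in introns and 27.8% against 28.6% between genes. In introns it was 26.4% against 46.9% on 2L and 28.1% against 48.8% on 3L, where the exact intervals did not overlap. They overlapped on 3R (47.2% against 50.03%) and X (47.9% against 57.0%). In the 500 kb outside the limits 36.9% were in introns, so a low intron share was not particular to the members. Between genes the share was higher on 3L (46.9% against 32.3%) and lower on 3R (20.4% against 28.8%), with overlapping intervals on all 4 arms. Of the 16 IDR members, 8 were within 500 bp of a protein-coding start. By annotation 7 of the 16 were in introns, 4 in 5′ UTRs, 4 between genes and 1 in an exon of a non-coding transcript.

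The members stood in sequence with less masking than the segments as a whole. In the 501 bp around a summit the median masked share was 15.8% for members (95% interval 13.4 to 18.0%) and 16.6% for the others (16.4 to 16.8%). These like medians hide arms that went opposite ways. The share was 21.6% (17.2 to 26.9%) against 15.8% on 2L and 24.4% (17.0 to 31.9%) against 16.8% on 3L. It was 10.4% (7.58 to 13.6%) against 15.6% on 3R and 17.1% (11.6 to 22.8%) against 19.2% on X. In the IDR members it ran over 4.59 to 25.9%. Within an annotated transposable element were 10 members (4.15%, 2.01 to 7.50%), against 64 of the others (0.268%). Such elements cover 15.4% of the bases of the segments and 3.94% of the rest, so both shares lay below the share of bases. Of the 317 candidates in the 500 kb outside the limits 11 were in one too (3.47%, 1.74 to 6.12%), while none of the 16 IDR members was. Those 10 members in an element had pooled signals of 34.5 to 50.3, 1 had a summit in both replicate lists, and 4 were in INE-1, a short and very common element. The masked share around them ran from 0 to 98.4%, so low masking does not mean that no element was there.

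The Snail-family word was about as frequent at members as at other candidates. Searched on both strands to 50 bp from the summit, CAGGTG was found in 13 of 241 members (5.39%, 2.90 to 9.05%) against 5.90% of the others. The shuffled control word GTGGAC was in 9 of the 241 members (3.73%, 1.72 to 6.97%), an interval that overlaps that of CAGGTG, against 2.46% of the others. In all 101 bp windows tiled over the segments CAGGTG was in 2.84%, and over the rest of the arms in 4.13%. ACAGGT, which overlaps it, was in 6.64% of members against 4.87% of the others, and in 3.26% of the tiled segment windows against 2.54%. Of the 16 IDR members, tio alone held CAGGTG, beside 332 of the 3283 other IDR peaks (10.1%), a share at which a count of 1 in 16 does not set the members apart. ACAGGT also stood at position -46 from the summit of Sfxn1-3.

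Besides the sites printed above, CAGGTG lay at 10 members of lower signal, among them the Snap25 intron, an intron of fog (66.0) and the starts of Slmap (42.9) and CG17163 (39.6). Other words gave shares of a like size inside and outside. GAGAGA, the GAGA factor site, was in 6.64% against 5.92%, TATTTA in 21.2% against 18.5%, ATCGAT of DREF in 3.73% against 3.83% and GTCACA of M1BP in 2.90% against 3.91%. AATATA was in 17.4% against 13.9%, and the shuffled control GTGGAC in 3.73% against 2.46%.

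Replicates shared a somewhat smaller part of the members than of the other candidates, with intervals that just overlap. A summit within 100 bp in both replicate lists was found for 93 members (38.6%, 32.4 to 45.1%) against 10852 others (45.5%, 44.8 to 46.1%). In replicate 1 it was 68.5% against 67.0%, and in replicate 2 58.5% (52.0 to 64.8%) against 69.2%. Neither list matched 11.6% against 9.26%. In the 500 kb outside the limits 117 of 317 candidates had both (36.9%, 31.6 to 42.5%). There replicate 2 matched 61.2% and neither list 11.7%, so these shares were not particular to the members. Of the 16 IDR members 15 had both, and of the 225 others 78 did.

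Where both lists had a summit, the log2 ratio spread as widely as elsewhere, while the signals correlated less. The median log2 ratio of replicate 2 to replicate 1 was 0.06 over the 93 members (95% interval -0.01 to 0.18, SD 0.62) and 0.10 over the others (SD 0.62). By arm the members' median ran from -0.02 on X (21 members) to 0.41 on 2L (18 members, 0.04 to 0.67). Across the 93 members the log2 signals had a Pearson's r of 0.72 and a Spearman's rho of 0.61, beside 0.83 and 0.73 across the others. These run over peaks of the same libraries and over a narrower range of signal for the members, and are given as a description.

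**Figure D5:**
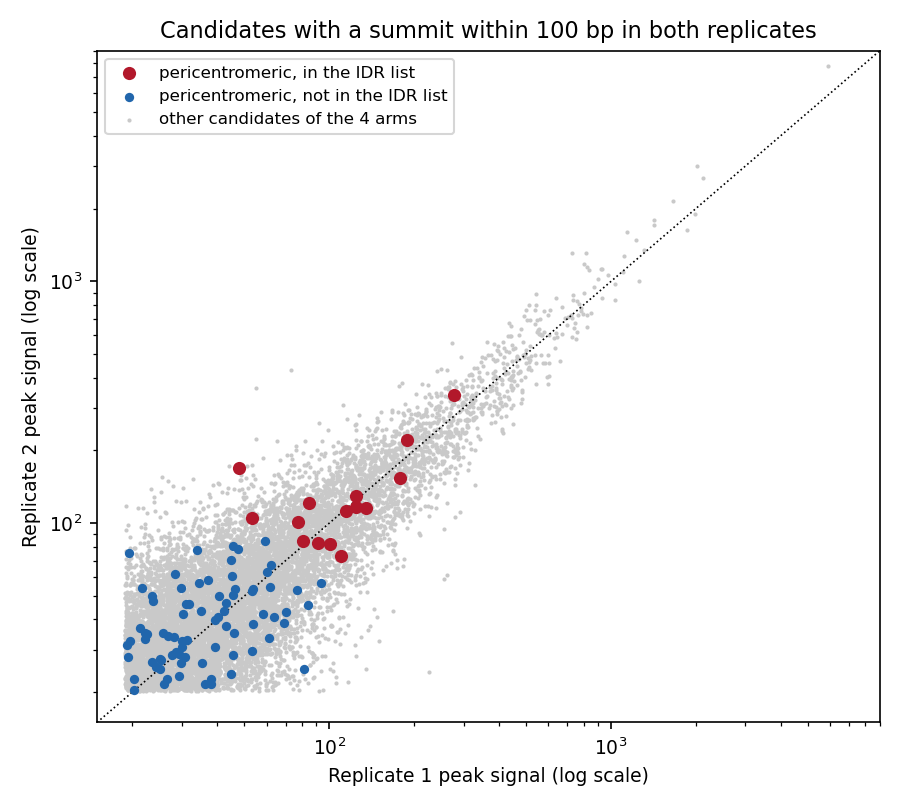
Replicate 2 signal against replicate 1 signal (both log scale) for candidates with a summit within 100 bp in both lists. Red points are pericentromeric IDR members (15), blue points the other members (78) and grey points the other candidates of the 4 arms, and the dotted line marks equal signal. The red points run from 48.0 to 277 in replicate 1, well below the strongest grey ones.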

How the data were processed

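The peak lists were deposited in narrowPeak format, and the signal in them is the value given by the authors' peak caller, on a scale that is not stated. Each list also holds the −log10 q-value as deposited, which was not used to rank peaks. Summit positions in the deposited lists were turned into 1-based dm6 coordinates. Which aligner and caller were used is not given in the sources used here, and read depth is unknown.

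The 241 members, the genes listed and the words searched were chosen with earlier results of these data known. Summits matched within 100 bp. A promoter was 500 bp to either side of any protein-coding start of Ensembl release 115. Sequence came from RefSeq Release 6, in which lower case marks masked bases, and 0 peaks ran past a chromosome end. Shares have exact Clopper-Pearson 95% intervals. No test was run, since the 2 samples form 1 group. Python 3.11.15, NumPy 2.4.6, pandas 2.3.3, SciPy 1.17.1 and matplotlib 3.10.9 were used, and matching and word searches were tested on simulated data.

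Named sites were all IDR members, the 10 strongest others, those next to each limit and the listed genes. Further deep gene starts, genes with several candidates and weaker sites with CAGGTG were chosen after their values were seen.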

Additional observations from a re-analysis of the deposited data

How the results depend on the processing

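Of 31 alternative values, 20 stayed close to those reported and 11 moved. The share of members in the IDR list was 5.66% with the limits 100 kb further in, 7.46% with them 250 kb further out and 6.64% with 1 summit per interval, and that of the other candidates 13.6 to 13.8%. With 1 replicate left out, and as many of the strongest candidates of the remaining list taken as there are IDR peaks, the members' share was 6.08 to 7.77% and the others' 13.6 to 13.8%. The median signal was then 25.7 to 30.0 for members and 30.4 to 33.8 for the others, since a replicate's list has lower values than the pooled list. Other widths moved the shares by construction. Members with a summit in both replicate lists were 26.6% within 50 bp and 52.3% within 250 bp, and members at a protein-coding start 31.1% within 250 bp and 55.2% within 1000 bp. CAGGTG was in 1.66% of members within 25 bp and 10.8% within 100 bp, and the median masked share was 10.9% within 50 bp. No paired analysis was possible because the samples form 1 group. Depth is unknown, so absence from a list is no absence of binding.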

Other observations

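The replicate lists differed in how far they reached into the segments. Replicate 1 held 296 candidates there (1.23% of its candidates on the 4 arms) and replicate 2 held 206 (0.858%), beside 241 in the pooled list. On 3L the counts were 62 in replicate 1 and 17 in replicate 2, on 2L 62 and 35, on X 59 and 44, and on 3R 113 and 110. Beyond 1000 kb from the limits replicate 1 had 48 and replicate 2 had 10.

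Of the replicate 1 candidates in the segments, 131 (44.3%, exact 95% interval 38.5 to 50.1%) had no pooled candidate within 100 bp, against 32.9% of those in the rest of the arms. For replicate 2 it was 65 (31.6%, 25.3 to 38.4%) against 30.5%. Their median signals were 21.7 and 23.5. Of the 59 pooled members deeper than 500 kb, 25 were matched in replicate 1 alone, 3 in replicate 2 alone, 23 in both and 8 in neither.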
